A study of Mus musculus with 16 samples.

Results

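The genes described here are the chemokines and chemokine receptors of the mouse heart. They were the rows of the count table whose Ensembl identifier maps to a symbol of the families Ccl, Cxcl, Cx3cl, Xcl, Ccr, Cxcr, Cx3cr, Xcr or Ackr followed by a number, with a summed count of at least 160 over the 16 libraries. Of the 55487 rows, 68 carried such a symbol and 41 of these reached the limit. They comprised 19 CC ligands, 8 CXC ligands, the CX3C ligand Cx3cl1, 10 receptors and 3 atypical receptors. The members just inside the limit were Ccl19, Cxcl2 and Ccr7, with summed counts of 172, 182 and 185, and the closest rows outside it were Cxcr5, Ccl27 and Cxcl13, with 155, 152 and 148. In all, 27 matching rows were under the limit and 1 of them, Ccl20, had no count in any library. All 41 members passed the filter on low counts that left 18275 genes for testing.

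Chemokines are small secreted or membrane-tethered proteins that guide the movement of cells. They are grouped as CC, CXC, CX3C or XC by the spacing of conserved cysteines near the start of the protein, and most act through receptors coupled to G proteins on leukocytes. Atypical receptors bind the same ligands without that coupling and take them up or carry them, which limits or shapes their gradients. In the heart, stromal ligands such as Cxcl12 are made without injury, while ligands such as Ccl2 draw monocytes into loaded or injured myocardium.

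RNA was from the apex of the heart of 16 male mice, 4 in each of 4 groups, 4 weeks after surgery. Transverse aortic constriction (TAC) ties the aorta around a needle and so raises the pressure the left ventricle works against, and the sham operation left out only the ligation. Mice labelled WT or Control in genotype are called Ctrl here, and mice labelled CARDINAL-KO, in which the lncRNA gene Cardinal was deleted with CRISPR/Cas9, are called KO. The groups were Ctrl sham (WT, sham), KO sham (CARDINAL-KO, sham), Ctrl TAC (WT, TAC) and KO TAC (CARDINAL-KO, TAC), and the labels give neither strain nor age. Each library was 1 mouse, with its own animal number.

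Library totals ranged from 53169437 to 79404714 counts. Levels are in CPM, read counts scaled by the TMM-adjusted size of the library, as mean ± SD over the 4 mice of a group. Fold changes are log2 values with the standard error (SE) from edgeR's quasi-likelihood test, and a gene was called where the Benjamini-Hochberg adjusted p over all 18275 genes was under 0.05. Cardinal itself, annotated as Gm12295, was at 2.69 to 8.03 CPM in the 8 Ctrl libraries, at 0.276 to 0.553 CPM in 7 KO libraries and at 4.55 CPM in the library labelled KO TAC 4, which goes against its label. On the second principal component of all genes Ctrl TAC 2 stood at -62.5 and the other 15 libraries between -3.40 and 13.8. In Ctrl TAC 2 the 5 adipose tissue markers summed to 3.09 CPM, against 0.0338 to 0.647 CPM in the other 15. Their part in its position was not tested. Where leaving out either library changed a member's call, this is stated with the adjusted p or its range. The heart labels were checked against cardiomyocyte markers, whose 7 genes summed to between 32700 and 49820 CPM in every library.

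Compared per kilobase of exon, on the scale of CPM per kilobase averaged over the 16 libraries, the highest members were the ligand Cxcl12 at 15.9, the atypical receptor Ackr3 at 15.3 and the ligand Cxcl14 at 10.4. Cxcl12 is the ligand of Cxcr4 and is also bound and taken up by Ackr3, and Cxcl14 is a ligand of epithelia and stroma. Both Ccl21a rows followed at 7.30 and 6.30, and then Ccl6 at 5.16, while the lowest member was Ccr9 at 0.0187. Among typical receptors Cxcr4 was highest, at 2.56 CPM per kilobase, and the monocyte receptor Ccr2 was at 0.474.

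TAC against sham in Ctrl hearts asked which chemokine genes moved with pressure load when Cardinal was intact. Of the 41 members, 7 were called higher and 4 lower by edgeR, against 10.4% of all genes tested called higher and 9.6% called lower. In KO hearts 15 members were called higher and 6 lower, against 17.8% and 16.5% of all genes. Of these 15, 6 were rows of near-identical Ccl21 copies. The median log2 fold change of the members was 0.25 in Ctrl and 0.51 in KO, and that of all genes tested was 0.00 in both. Each of the 6 Ccl21 rows counts in these medians, at 0.13 to 0.29 in Ctrl and 0.67 to 0.76 in KO, which raises the KO median. In all, 22 members, the 6 Ccl21 rows among them, were called in either genotype, 6 higher in both and 4 lower in both, and none in opposite directions. The shares of all genes called in either or in both genotypes were not counted, so these numbers have no background beside them. All TAC mice lay above all sham mice for 6 members in Ctrl and below for 4, against 10.5% and 9.97% of all genes tested. In KO this held for 14 and 6 members, against 18% and 16.6%. The comparisons in both genotypes share no library. Animal numbers of Ctrl TAC 2 to 4 and KO TAC 4 start with 25, and those of all sham mice with 3. The labels do not say what this series means. In Ctrl above all, surgery and series cannot be fully told apart. With a term for the series the calls fell from 11 members and 3652 genes to 8 and 2479 in Ctrl. In KO they went from 21 members and 6271 genes to 18 and 6229. In bulk tissue such as this, fewer cells of a type and less RNA per cell cannot be told apart. Without Ctrl TAC 2, 7 members were called higher and 2 lower in Ctrl, and without KO TAC 4, 13 were called higher and 5 lower in KO.

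**Figure D1:**
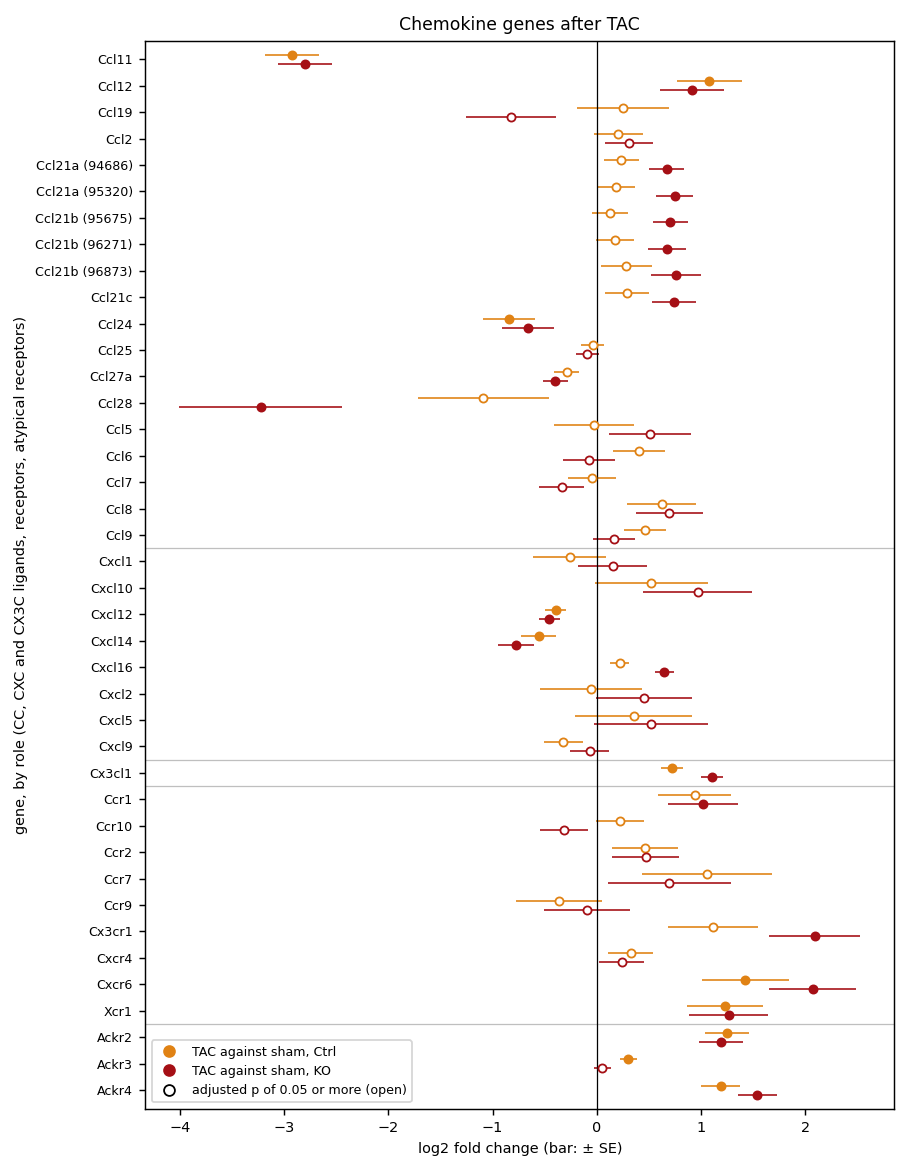
Log2 fold change of 40 members after TAC against sham (horizontal axis, bar: SE), in Ctrl (orange) and KO (red) hearts, with genes ordered by role on the vertical axis and numbers in brackets ending the identifiers of copies that share a symbol. Filled points have an adjusted p under 0.05; all 3 atypical receptors, Cx3cl1 and Ccl12 lie to the right of 0, and Ccl11, Ccl24, Cxcl12 and Cxcl14 to the left in both genotypes.

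The abundant stromal ligand Cxcl12 (chromosome 6, 117168535 to 117181367 on GRCm38, the build of all positions given) was lower after TAC in both genotypes. Its level was 145, 176, 164 and 129 CPM in the 4 Ctrl sham mice and 114, 128, 125 and 102 CPM in the 4 Ctrl TAC mice. In KO it was 139, 147, 138 and 154 CPM in sham mice and 108, 87.1, 115 and 111 CPM in TAC mice. Every TAC mouse was below every sham mouse of its genotype. The log2 fold change was -0.40 (SE 0.10) in Ctrl, adjusted p = 0.0088 by edgeR, and -0.46 (SE 0.10) in KO, adjusted p = 0.00171. Both calls held under every alternative run, the omission of each library in turn included.

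Cxcl14 (chromosome 13, 56288643 to 56296551) fell alongside it. The Ctrl sham mice had 21.1, 20.4, 24.5 and 22.1 CPM and the Ctrl TAC mice 18.2, 12.6, 12.2 and 16.9 CPM. KO sham mice had 24.2, 26.6, 27.1 and 20.9 CPM and the KO TAC mice 12.3, 12.5, 12.2 and 20.5 CPM. The groups did not overlap in either genotype, although KO TAC 4 stood close to the lowest KO sham mouse. Cxcl14 fell by 0.56 (SE 0.17) on the log2 scale in Ctrl, adjusted p = 0.0295 by edgeR, and by 0.78 (SE 0.17) in KO, adjusted p = 0.00214. The Ctrl call was lost without any 1 of Ctrl sham 1, 3 and 4 and Ctrl TAC 2 and 3, with adjusted p from 0.0531 to 0.0816, and the latter value was that without Ctrl TAC 2, and also with no filter on low counts, with 0.0803. The KO value without KO TAC 4 was -1.0, adjusted p = 2.14e-05.

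Of Ackr3 and Cxcr4, the partners of Cxcl12, only Ackr3 was called, and in Ctrl alone. Ackr3 (chromosome 1, 90203980 to 90216751) was at 41.5, 48.9, 43.2 and 49.7 CPM in Ctrl sham and at 54.2, 52.0, 67.1 and 52.7 CPM in Ctrl TAC mice, with no overlap and Ctrl TAC 3 highest. It rose by 0.30 log2 units (SE 0.08) in Ctrl, adjusted p = 0.0162 by edgeR, and its log2 difference in KO was 0.05 (SE 0.08), adjusted p = 0.67. KO levels were 45.1 to 56.4 CPM in sham and 51.0 to 53.2 CPM in TAC mice. The difference between genotypes in this response was -0.25 (SE 0.12) on the log2 scale, adjusted p = 0.454 for the interaction in edgeR, so the responses were not shown to differ. The Ctrl call was lost without any 1 of Ctrl sham 1, Ctrl sham 3 and Ctrl TAC 3, with adjusted p from 0.0508 to 0.0633, and in the fit that had a term for the animal-number series, with 0.112. Cxcr4, the signalling receptor of Cxcl12, was at 4.07 ± 0.43 CPM in Ctrl sham, 5.11 ± 1.59 in Ctrl TAC, 4.29 ± 1.21 in KO sham and 5.07 ± 0.94 in KO TAC hearts, with log2 differences of 0.33 (SE 0.22) and 0.24 (SE 0.22) that did not pass the test. With the term for the series the Ctrl difference was 0.76, adjusted p = 0.023 in edgeR, a call, and the KO difference 0.39, adjusted p = 0.0976. Ctrl TAC 1 was the only Ctrl TAC mouse in the series of the sham mice, so the Ctrl value leans on it. It stood apart for Cxcr4, at 7.46 CPM against 3.94 to 4.52 CPM in the others of its group.

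The eotaxins, which draw eosinophils through Ccr3, were lower after TAC. Ccl11 (chromosome 11, 82057823 to 82062955) was at 2.42, 3.08, 2.74 and 3.97 CPM in Ctrl sham and at 0.334, 0.284, 0.684 and 0.292 CPM in Ctrl TAC mice. In KO the sham mice had 2.58, 2.50, 2.01 and 2.88 CPM and the KO TAC mice 0.446, 0.373, 0.245 and 0.362 CPM. The highest TAC mouse was below the lowest sham mouse in each genotype. The log2 fold change was -2.93 (SE 0.26) in Ctrl, adjusted p = 4.59e-07 by edgeR, and -2.80 (SE 0.26) in KO, adjusted p = 2.31e-07, and it was called under every alternative run.

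Ccl24, the other eotaxin measured, was at 0.752, 1.26, 1.20 and 0.939 CPM in Ctrl sham and at 0.757, 0.493, 0.654 and 0.418 CPM in Ctrl TAC mice. The KO sham mice had 1.01, 0.822, 1.24 and 0.879 CPM and the KO TAC mice 0.594, 0.731, 0.782 and 0.410 CPM. Groups overlapped at the margin in Ctrl and did not overlap in KO. It fell by 0.84 (SE 0.25) on the log2 scale in Ctrl, adjusted p = 0.0221 by edgeR, and by 0.66 (SE 0.25) in KO, adjusted p = 0.0472. The Ctrl call was lost without any 1 of Ctrl sham 2 and 3 and Ctrl TAC 2 and 4, with adjusted p from 0.0549 to 0.081, and in the fit that had a term for the animal-number series, with 0.472. The KO call was lost in 9 of the 16 fits without 1 library (Ctrl sham 3 and 4, KO sham 1, 3 and 4, Ctrl TAC 3 and KO TAC 1, 2 and 4), with adjusted p from 0.0515 to 0.151, and it was also lost with the series term (0.0864), with no filter on low counts (0.0883) and without both Ctrl TAC 2 and KO TAC 4 (0.147). The receptor Ccr3 had a summed count of 14 over all libraries and was outside the limit.

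Cx3cl1, or fractalkine, is a membrane-tethered ligand of endothelium and other cells, and its receptor Cx3cr1 marks monocytes and resident macrophages. Cx3cl1 (chromosome 8, 94772009 to 94782427) was at 4.62, 5.75, 5.22 and 5.53 CPM in Ctrl sham and at 8.62, 7.83, 7.98 and 10.3 CPM in Ctrl TAC mice. KO sham mice had 5.42, 4.97, 6.27 and 4.76 CPM and the KO TAC mice 11.6, 10.5, 12.3 and 11.7 CPM. Every TAC mouse was above every sham mouse, and every KO TAC mouse was above every Ctrl TAC mouse. The log2 fold change was 0.72 (SE 0.11) in Ctrl, adjusted p = 9.82e-05 by edgeR, and 1.11 (SE 0.11) in KO, adjusted p = 3.36e-07, and both were called in every fit.

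Cx3cr1 was at 1.04, 1.41, 1.27 and 0.352 CPM in Ctrl sham and at 3.91, 1.30, 2.14 and 1.61 CPM in Ctrl TAC mice, which overlapped. In KO it was at 0.348, 0.490, 1.34 and 0.896 CPM in sham and at 2.69, 3.70, 3.88 and 2.81 CPM in TAC mice, which did not. The rise in KO was 2.09 (SE 0.44) on the log2 scale, adjusted p = 0.00174 by edgeR, and was called in every fit, while the Ctrl difference was 1.12 (SE 0.43), adjusted p = 0.0833. In the fit that had a term for the animal-number series Ctrl was called too, at 1.59, adjusted p = 0.0367 in edgeR. That value leans on Ctrl TAC 1, the only Ctrl TAC mouse in the series of the sham mice and the highest, at 3.91 CPM. The interaction was 0.97 (SE 0.61), adjusted p = 0.589, so the responses of the genotypes were not shown to differ. In the annotation the body of Cx3cr1 spans several genes, among them the abundant muscle gene Xirp1 on the same strand, which rose by 0.53 (SE 0.10) in Ctrl and 0.57 (SE 0.10) in KO on the log2 scale, and its part in the Cx3cr1 counts was not tested.

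Cxcl16, made by macrophages and endothelium as a tethered or shed ligand, pairs with Cxcr6 of T cells and related lymphocytes. Cxcl16 (chromosome 11, 70453983 to 70459984) was at 6.20, 7.23, 7.20 and 8.08 CPM in Ctrl sham and at 8.69, 7.41, 8.16 and 9.06 CPM in Ctrl TAC mice. In KO the sham mice had 7.26, 7.17, 6.54 and 6.71 CPM and the KO TAC mice 10.8, 12, 10.9 and 9.67 CPM. The Ctrl groups overlapped and the KO groups did not. TAC raised it in KO by 0.65 log2 units (SE 0.09), adjusted p = 2.26e-05 by edgeR, and the Ctrl difference was 0.22 (SE 0.09), adjusted p = 0.103. Without both Ctrl TAC 2 and KO TAC 4 the Ctrl difference was called, at 0.27, adjusted p = 0.0456 in edgeR, and it was also called without Ctrl sham 4. Exons of Cxcl16 share bases with Zmynd15 on the opposite strand, which was at 2.51 to 3.22 CPM in the group means and was not called (log2 difference 0.34, SE 0.14, adjusted p = 0.0646 in KO).

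Cxcr6 (chromosome 9, 123806475 to 123811760) was higher after TAC in both genotypes. Its level was 0.265, 0.250, 0.422 and 0.196 CPM in Ctrl sham and 1.09, 0.329, 0.760 and 0.891 CPM in Ctrl TAC mice, where Ctrl TAC 2 fell within the sham range. In KO it was 0.0949, 0.175, 0.413 and 0.281 CPM in sham and 0.594, 0.861, 1.06 and 1.52 CPM in TAC mice, with no overlap. The log2 fold change was 1.43 (SE 0.42) in Ctrl, adjusted p = 0.0209 by edgeR, and 2.07 (SE 0.42) in KO, adjusted p = 0.00088. The Ctrl call was lost without any 1 of Ctrl sham 1, 2 and 4 and Ctrl TAC 1 and 4, with adjusted p from 0.0546 to 0.0653, and in the fit that had a term for the animal-number series, with 0.0871. Cxcr6 lies within the gene body of the abundant Fyco1 on the opposite strand, and whether counting used strand is not given in the sources used here. Fyco1 moved the other way, from 494 to 326 CPM in the Ctrl means and from 459 to 269 CPM in the KO means.

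**Figure D2:**
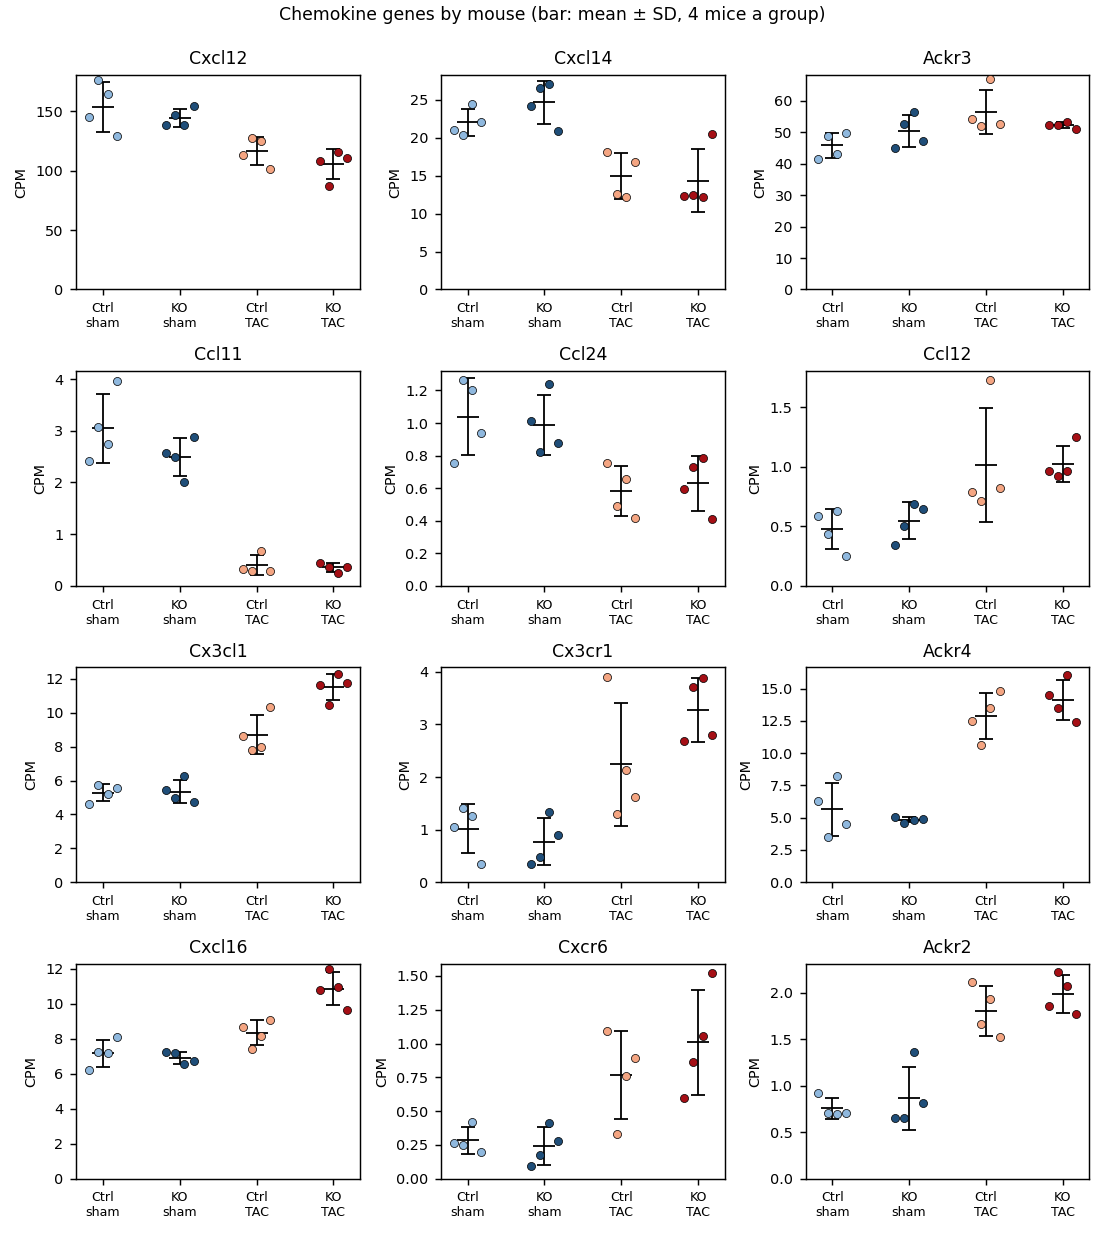
CPM (vertical axis, linear from 0) of 12 members in each mouse, by group (horizontal axis), with the mean and SD as bars. Ccl11 drops below 0.7 CPM in all 8 TAC mice, and Cx3cl1 and Cxcl16 are highest in the 4 KO TAC mice.

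Ccl2, Ccl7 and Ccl12 draw monocytes through Ccr2. Ccl2 (chromosome 11, 82035571 to 82037453) was at 0.654, 1.09, 0.963 and 0.704 CPM in Ctrl sham and at 0.880, 0.642, 1.05 and 1.36 CPM in Ctrl TAC mice. The KO sham mice had 1.36, 1.43, 1.5 and 0.967 CPM and the KO TAC mice 1.71, 1.69, 1.23 and 1.88 CPM. Neither genotype's TAC mice separated from its sham mice, with log2 differences of 0.21 (SE 0.24), adjusted p = 0.601 by edgeR, in Ctrl and 0.31 (SE 0.23), adjusted p = 0.323, in KO. KO means were above Ctrl means within both operations, by 0.62 (SE 0.24) in sham and 0.72 (SE 0.23) in TAC hearts on the log2 scale, with overlapping mice, and neither passed (adjusted p = 1 and 0.0939). In TAC hearts DESeq2 called it, with adjusted p = 0.0389, and the edgeR value was 0.56, adjusted p = 0.28, without Ctrl TAC 2 and 0.93, adjusted p = 0.0382, without Ctrl TAC 4.

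Ccl12 was the member of this trio that was called. It was at 0.585, 0.437, 0.625 and 0.254 CPM in Ctrl sham and at 0.792, 0.717, 1.73 and 0.822 CPM in Ctrl TAC mice. KO sham mice had 0.348, 0.507, 0.689 and 0.650 CPM and the KO TAC mice 0.965, 0.926, 0.967 and 1.25 CPM. No TAC mouse fell within the sham range of its genotype. Ccl12 rose by 1.08 log2 units (SE 0.31) in Ctrl, adjusted p = 0.0196 by edgeR, and by 0.91 (SE 0.31) in KO, adjusted p = 0.0287. The Ctrl call was lost without any 1 of Ctrl sham 2, Ctrl sham 4 and Ctrl TAC 3 (adjusted p 0.0509 to 0.0979), and the KO call without any 1 of KO sham 1, KO sham 2 and KO TAC 4 (0.0666 to 0.0961). With the term for the animal-number series neither was called, at 0.75, adjusted p = 0.252, in Ctrl and 0.79, adjusted p = 0.0621, in KO by edgeR. The Ctrl call was also lost with only the 8 libraries compared (0.0588) and the KO call without both Ctrl TAC 2 and KO TAC 4 (0.072).

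Ccl7 stayed at group means between 0.695 and 1.02 CPM and was not called. Ccr2 was at 3.19, 3.23, 4.21 and 1.76 CPM in Ctrl sham, at 6.05, 3.56, 4.39 and 3.17 CPM in Ctrl TAC, at 1.14, 1.73, 3.65 and 2.60 CPM in KO sham and at 2.61, 3.28, 2.64 and 4.03 CPM in KO TAC mice. All 4 groups overlapped. Its TAC differences were 0.46 (SE 0.32) in Ctrl and 0.47 (SE 0.32) in KO on the log2 scale, with adjusted p = 0.347 and 0.296 by edgeR, and its KO difference in TAC hearts was -0.45 (SE 0.31), adjusted p = 0.487.

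**Figure D3:**
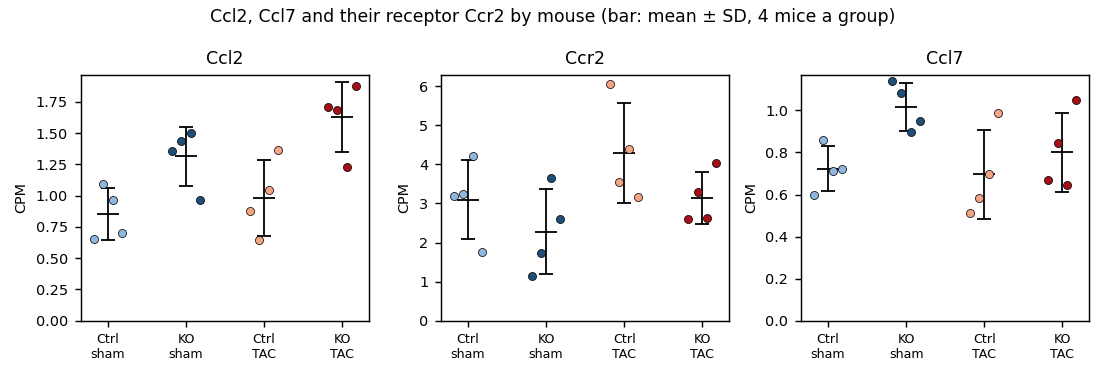
CPM (vertical axis, linear from 0) of the monocyte ligands Ccl2 and Ccl7 and their receptor Ccr2 in each mouse, by group (horizontal axis), with the mean and SD as bars. For Ccl2 and Ccr2, sham and TAC mice overlap within each genotype, and Ctrl and KO mice within each operation. Mean Ccl2 is 0.854 and 0.984 CPM in Ctrl sham and TAC and 1.31 and 1.63 CPM in KO sham and TAC hearts.

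Ccr1, which responds to several inflammatory CC ligands on myeloid cells, was at 0.613, 0.515, 0.524 and 0.176 CPM in Ctrl sham and at 1.09, 0.583, 1.06 and 0.836 CPM in Ctrl TAC mice. In KO the sham mice had 0.411, 0.525, 0.895 and 0.703 CPM and the KO TAC mice 0.980, 0.779, 1.43 and 1.92 CPM. Groups overlapped in both genotypes. It was called in KO, at 1.02 log2 units (SE 0.34), adjusted p = 0.0262 by edgeR, and not in Ctrl, at 0.94 (SE 0.35), adjusted p = 0.0694, and the interaction was 0.08 (SE 0.49), adjusted p = 0.971. The KO call was lost without any 1 of KO sham 1, KO sham 2, KO TAC 3 and KO TAC 4, with adjusted p from 0.062 to 0.116, with the term for the animal-number series (0.057) and without both Ctrl TAC 2 and KO TAC 4 (0.0948). The Ctrl difference was called without Ctrl TAC 2, at 1.1, adjusted p = 0.041 in edgeR, without both of these libraries (0.0321) and by DESeq2 (0.0406). Of its ligands, Ccl6 had group means of 8.16 to 10.8 CPM, Ccl9 of 4.85 to 6.69 CPM and Ccl5 of 0.175 to 0.252 CPM, none called in the fit to all libraries (Ccl9 was called in Ctrl with only the 8 libraries compared, adjusted p = 0.0441 in edgeR, and without KO sham 3), and Ccl3 was outside the limit with a summed count of 86.

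Xcr1, the receptor of cross-presenting dendritic cells, was at 0.431, 0.203, 0.524 and 0.0978 CPM in Ctrl sham and at 0.510, 1.05, 0.730 and 0.696 CPM in Ctrl TAC mice, which overlapped by 1 mouse. In KO it was at 0.205, 0.280, 0.189 and 0.351 CPM in sham and at 0.728, 0.601, 0.476 and 0.663 CPM in TAC mice, with no overlap. The log2 fold change was 1.23 (SE 0.36) in Ctrl, adjusted p = 0.0231 by edgeR, and 1.27 (SE 0.38) in KO, adjusted p = 0.0142. The Ctrl value was 1.02, adjusted p = 0.0684, without Ctrl TAC 2, which had the highest level, and 1.06, adjusted p = 0.0718, without Ctrl sham 2. It was also not called with the term for the animal-number series, at 0.90, adjusted p = 0.258, with only the 8 libraries compared (0.0735) or without both Ctrl TAC 2 and KO TAC 4 (0.0825). Its counts were low, from 5 to 70 per library. The ligand Xcl1 had a summed count of 28.

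Beside these leukocyte receptors stood higher markers of leukocytes themselves after TAC. The share of all genes tested called higher was 10.4% in Ctrl and 17.8% in KO. Of 5 markers of all leukocytes, 3 were called higher after TAC in Ctrl and 5 in KO, and their summed level was 29.1 to 38.2 CPM in Ctrl sham, 25.1 to 31.6 in KO sham, 37.7 to 47.3 in Ctrl TAC and 46.8 to 56.0 in KO TAC mice. Of 12 macrophage markers 6 were called higher in Ctrl and 8 in KO, with sums of 181 to 226, 175 to 204, 253 to 274 and 235 to 312 CPM in the same order of groups. Of 7 monocyte markers tested 4 and 5 were called higher. That list holds Vcan and Fn1, or fibronectin, which the authors also used as a marker of fibrosis. Mean Vcan went from 9.32 to 32.8 CPM in Ctrl and from 9.84 to 41.8 in KO, and Fn1 from 45.1 to 76.3 and from 41.3 to 98.5. Ly6c2 of the same list went from 4.948 to 5.075 CPM in Ctrl and from 4.975 to 4.321 in KO. No T cell marker was called of 10 tested, none of the 7 NK cell markers passed the filter, and 1 of 7 dendritic cell markers was called, which was Xcr1 itself. The part of these markers in the rise of Ccr1, Cx3cr1, Cxcr6 and Xcr1 was not tested.

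**Figure D4:**
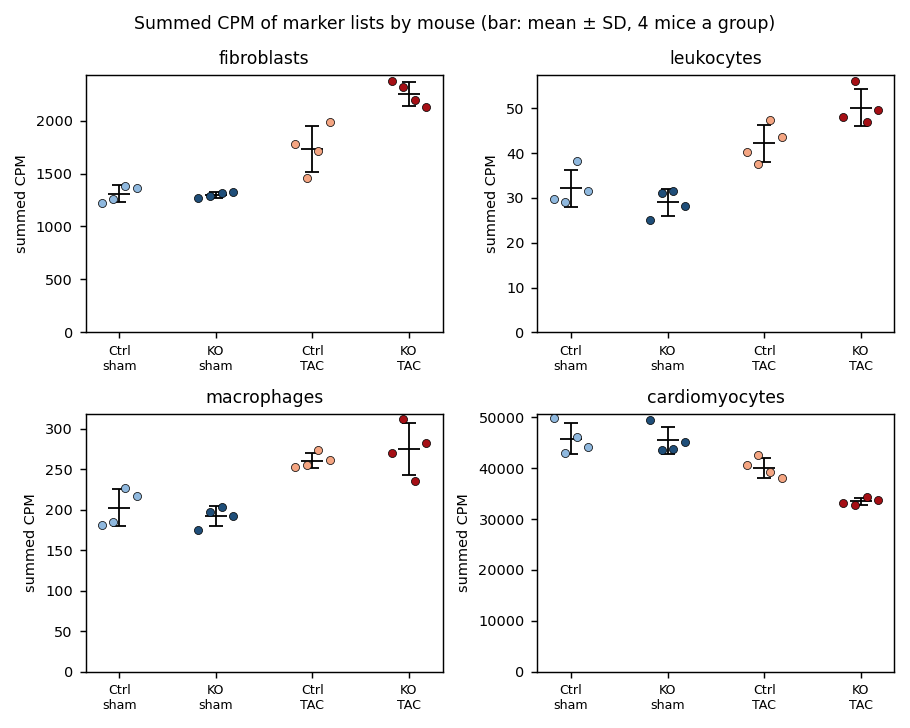
Summed CPM (vertical axis, linear from 0) of fixed lists of fibroblast, leukocyte, macrophage and cardiomyocyte markers in each mouse, by group (horizontal axis), with the mean and SD as bars. Fibroblast sums are 1220 to 1383 CPM in Ctrl sham and 2127 to 2377 CPM in KO TAC mice, and cardiomyocyte sums are lowest in KO TAC mice, at 32700 to 34310 CPM.

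Ccl21 and Ccl19 guide lymphocytes and dendritic cells through Ccr7, and Ccl21 is made by lymphatic endothelium. The mouse carries several near-identical Ccl21 genes, and 6 rows of the table bear their symbols. They are Ccl21a and Ccl21b on the assembled sequence of chromosome 4 and 4 copies on scaffolds not joined to it. Over the 402 bases of the Ccl21b coding transcript, the Ccl21a transcript differed at 2, T84A and C194T (the Ccl21a base, the position from the first base of the Ccl21b coding sequence, and the Ccl21b base), an identity of 99.5%. The stretch of bases 54 to 224 is shown to make clear how little the counts of the copies can rest on, with the differing bases in capitals.
Ccl21a: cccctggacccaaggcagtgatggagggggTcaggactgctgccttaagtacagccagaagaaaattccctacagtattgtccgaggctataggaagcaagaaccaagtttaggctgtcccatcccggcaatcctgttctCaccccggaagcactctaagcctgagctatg
Ccl21b: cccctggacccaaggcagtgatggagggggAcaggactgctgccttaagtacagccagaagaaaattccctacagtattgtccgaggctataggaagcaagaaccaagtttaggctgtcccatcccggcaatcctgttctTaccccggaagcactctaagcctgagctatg
Counts of the single copies are therefore uncertain, and the 6 rows were also summed and fitted as 1 feature.

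The Ccl21 sum was 10.1, 11.3, 10.1 and 8.53 CPM in Ctrl sham and 12, 8.32, 14.9 and 11.1 CPM in Ctrl TAC mice. In KO it was 9.88, 10.8, 10.4 and 10.1 CPM in sham and 16.6, 21.4, 13.9 and 14.8 CPM in TAC mice. The Ctrl groups overlapped, and every KO TAC mouse was above every KO sham mouse. TAC raised the sum in KO by 0.70 log2 units (SE 0.15), adjusted p = 0.0017 by edgeR, against 0.21 (SE 0.15), adjusted p = 0.368, in Ctrl, with an interaction of 0.48 (SE 0.21), adjusted p = 0.412. Each of the 6 rows was called in KO, with log2 fold changes of 0.67 to 0.76, and these are 6 of the 15 members called higher there. The call of the copy ENSMUSG00000096873 was lost without any 1 of KO sham 1, 3 and 4 and KO TAC 2, with adjusted p from 0.051 to 0.0673.

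Ccl19 and the receptor Ccr7 were near the count limit and were not called, with Ccr7 at group means of 0.105 to 0.248 CPM. Beside the Ccl21 sum, 2 of 6 lymphatic endothelial markers were called higher and 1 lower in Ctrl, and 4 were called higher in KO, Pdpn most at 1.22 (SE 0.12) on the log2 scale, while the summed level of the list overlapped among all groups, at 91.8 to 121.8 CPM. The shares of all genes tested were 10.4% called higher and 9.6% lower in Ctrl, and 17.8% and 16.5% in KO. Of 4 lymphoid tissue markers tested, the 2 called in KO were the Ccl21a rows themselves. The lymphoid tissue marker Glycam1 had no count, and of 6 B cell markers 4 were called higher in KO and none in Ctrl. The part of these cells in the Ccl21 level was not tested.

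All 3 atypical receptors were called higher in Ctrl, and Ackr2 and Ackr4 in both genotypes. Ackr2, which takes up inflammatory CC ligands, was at 0.919, 0.703, 0.693 and 0.704 CPM in Ctrl sham and at 2.11, 1.66, 1.93 and 1.52 CPM in Ctrl TAC mice. The KO sham mice had 0.648, 0.647, 1.36 and 0.808 CPM and the KO TAC mice 1.86, 2.23, 2.07 and 1.77 CPM. TAC and sham mice did not overlap in either genotype. Ackr2 rose by 1.25 log2 units (SE 0.21) in Ctrl, adjusted p = 0.000406 by edgeR, and by 1.19 (SE 0.21) in KO, adjusted p = 0.000252.

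Ackr4, which takes up Ccl19, Ccl21 and Ccl25, was at 6.29, 3.53, 8.23 and 4.52 CPM in Ctrl sham and at 12.5, 10.6, 13.5 and 14.8 CPM in Ctrl TAC mice. KO sham mice had 5.09, 4.57, 4.84 and 4.92 CPM and the KO TAC mice 14.5, 13.5, 16 and 12.4 CPM. Again the groups did not overlap. Its log2 fold change was 1.19 (SE 0.19) in Ctrl, adjusted p = 0.000288 by edgeR, and 1.54 (SE 0.19) in KO, adjusted p = 1.16e-05. Ackr2 and Ackr4 were called in every fit of both genotypes. Ackr4 lies within Acad11 on the opposite strand and shares exon bases with it, so its counts are uncertain, and Acad11 moved the other way, from 178 to 138 CPM in the Ctrl means and from 173 to 127 CPM in the KO means.

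Among the epithelial ligands of Ccr10, Ccl27a was at 3.73, 3.31, 3.46 and 3.11 CPM in Ctrl sham and at 2.55, 2.73, 2.9 and 2.95 CPM in Ctrl TAC mice, and at 3.21, 2.80, 3.58 and 4.15 CPM in KO sham and 2.84, 2.45, 2.35 and 2.77 CPM in KO TAC mice. The mice separated in Ctrl and overlapped in KO. It was nevertheless called in KO, at -0.40 (SE 0.12), adjusted p = 0.0169 by edgeR, and not in Ctrl, at -0.29 (SE 0.12), adjusted p = 0.107, and the interaction was -0.11 (SE 0.17), adjusted p = 0.87. The KO call was lost without KO sham 4 or KO TAC 3, with adjusted p from 0.0556 to 0.0755. Exons of Ccl27a share 8 bases with Il11ra1, which was at 41.2 to 44.6 CPM in the group means.

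Ccl28 rested on few reads. Its counts were 20, 28, 41 and 38 in Ctrl sham, 0, 10, 27 and 30 in Ctrl TAC, 21, 44, 15 and 27 in KO sham and 5, 5, 0 and 3 in KO TAC mice. The KO TAC mice were all below the KO sham mice, and the Ctrl groups overlapped. The fitted log2 fold change was -3.23 (SE 0.78) in KO, adjusted p = 0.00401 by edgeR, called in every fit, against -1.09 (SE 0.63), adjusted p = 0.251, in Ctrl, with an interaction of -2.14 (SE 1.02), adjusted p = 0.454. Their receptor Ccr10 was at group means of 0.652 to 0.819 CPM and was not called, and lies within Cntnap1 on the opposite strand.

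The members named next were not called by edgeR in any comparison. The neutrophil ligands Cxcl1, Cxcl2 and Cxcl5, which act through Cxcr2, had group means of 0.776 to 1.37, 0.147 to 0.241 and 0.184 to 0.283 CPM, and Cxcr2 had a summed count of 84. The interferon-induced ligands Cxcl9 and Cxcl10, which act on T cells through Cxcr3, had group means of 2.56 to 3.20 and 0.447 to 0.917 CPM, with Cxcl10 inside the gene Art3 on the opposite strand. Ccl8, a ligand of Ccr8, had group means of 0.523 to 0.993 CPM, the thymic and gut ligand Ccl25 of 2.11 to 2.3 CPM and its receptor Ccr9 of 0.169 to 0.215 CPM. Ccl25 shares exon bases with Elavl1 on the opposite strand and Ccr9 with 3 further genes, so both are uncertain. Their TAC differences lay between -0.36 and 0.97 on the log2 scale.

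KO against Ctrl in sham hearts asked whether chemokine genes differed without pressure load. No member was called by edgeR, against 0% of all genes called higher and 0% called lower, while 2 members, Ccl2 and Ccl7, and 479 of all genes had an unadjusted p under 0.05. Even the deleted gene Cardinal was not called here, at 3.245 to 3.859 CPM in Ctrl sham and 0.2973 to 0.5533 CPM in KO sham mice. The lack of calls therefore does not show that the groups were alike. DESeq2 called 0 members. Ccl7 was at 0.599, 0.859, 0.710 and 0.724 CPM in Ctrl sham and at 1.14, 1.08, 0.895 and 0.949 CPM in KO sham mice, which did not overlap, with a log2 difference of 0.49 (SE 0.22), adjusted p = 1 by edgeR. All KO sham mice lay above all Ctrl sham mice for 2 members, Ccl7 and Ccl19, and for 0.941% of all genes tested. The reverse held for 0 members and 0.837% of all genes. The members' log2 differences lay between -0.45 and 0.68, with a median of 0.04, against -0.002 for all genes.

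KO against Ctrl in TAC hearts asked whether loss of Cardinal changed the loaded heart. The calls were 2 members higher, Cx3cl1 and Cxcl16, and none lower, against 1.36% and 1.32% of all genes tested. Cx3cl1 averaged 8.70 ± 1.15 CPM in hearts of Ctrl TAC mice and 11.5 ± 0.769 CPM in those of KO TAC mice, a log2 difference of 0.41 (SE 0.10), adjusted p = 0.0422 by edgeR. Cxcl16 averaged 8.33 ± 0.718 and 10.9 ± 0.955 CPM, a log2 difference of 0.38 (SE 0.09), adjusted p = 0.0333. For both genes the 4 KO TAC mice were above the 4 Ctrl TAC mice. This held for 3 members, the Ccl21b row on chromosome 4 included, and for 5.55% of all genes tested. The reverse held for 0 members and 4.99% of all genes.

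Both calls depended on single libraries. Cx3cl1 was not called without any 1 of Ctrl sham 3, KO sham 1 and 2, Ctrl TAC 1, 2 and 3 and all 4 KO TAC libraries, with adjusted p from 0.0544 to 0.146 by edgeR and the latter without Ctrl TAC 2, where the log2 difference was 0.36. Cxcl16 was not called without any 1 of Ctrl TAC 2 and 3 and KO TAC 1, 2 and 3, with adjusted p from 0.0652 to 0.121, the latter also without Ctrl TAC 2, at 0.33. Without KO TAC 4, whose Cardinal level goes against its label, the values were 0.40, adjusted p = 0.0784, for Cx3cl1 and 0.43, adjusted p = 0.0252, for Cxcl16. The animal numbers of Ctrl TAC 2 to 4 and of KO TAC 4 start with 25 and all others with 3, and the labels do not say what this series means. Within the series starting with 25 the log2 ratio of KO to Ctrl means was 0.43 for Cx3cl1 and 0.24 for Cxcl16, and within the other, which held 1 Ctrl TAC and 3 KO TAC mice, 0.41 and 0.37. In the fit with a term for the series the adjusted p was 0.142 for Cx3cl1 and 0.207 for Cxcl16. Both also missed the threshold with only the 8 libraries compared and without both Ctrl TAC 2 and KO TAC 4, and Cx3cl1 with no filter on low counts (0.0554).

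DESeq2 called 7 members here, adding Ccl2, both Ccl21a rows and the Ccl21b row on chromosome 4 as higher and Ccl28 as lower. In edgeR the Ccl21a copy ENSMUSG00000095320 was also called without Ctrl TAC 3, and Ccl28 without Ctrl TAC 1. The Ccl21 sum differed by 0.52 (SE 0.15) on the log2 scale with adjusted p = 0.0675 in edgeR, from 11.6 ± 2.72 CPM in Ctrl TAC to 16.7 ± 3.33 CPM in KO TAC hearts, whose mice overlapped. The median log2 difference of the 41 members was 0.14, with 26 above 0, the 6 Ccl21 rows among them, and 15 below, against -0.002 for all genes. Of 8 fibroblast markers, 2 were called higher in KO TAC, Postn by 1.21 (SE 0.18) and Col1a2 by 0.40 (SE 0.10) on the log2 scale. Of the 5 leukocyte markers none was called, and of the 12 macrophage markers Cd163 was called lower, by 0.61 (SE 0.14). Of the monocyte, lymphatic endothelial and cardiomyocyte markers, Fn1 was called higher of 7, by 0.37 (SE 0.07), Mmrn1 higher of 6, by 0.37 (SE 0.08), and Myh6 and Ryr2 lower of 7, at -0.39 (SE 0.08) and -0.34 (SE 0.08) on the log2 scale. Fn1 is also a fibrosis marker of the authors. From Ctrl TAC to KO TAC hearts, Ly6c2 and Plac8 of the monocyte list went from 5.075 to 4.321 CPM and from 0.360 to 0.238 CPM in the means. Of all genes tested, 1.36% were called higher and 1.32% lower here. Whether these markers had a part in the levels of Cx3cl1, Cxcl16 and Ccl21 was not tested.

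**Figure D5:**
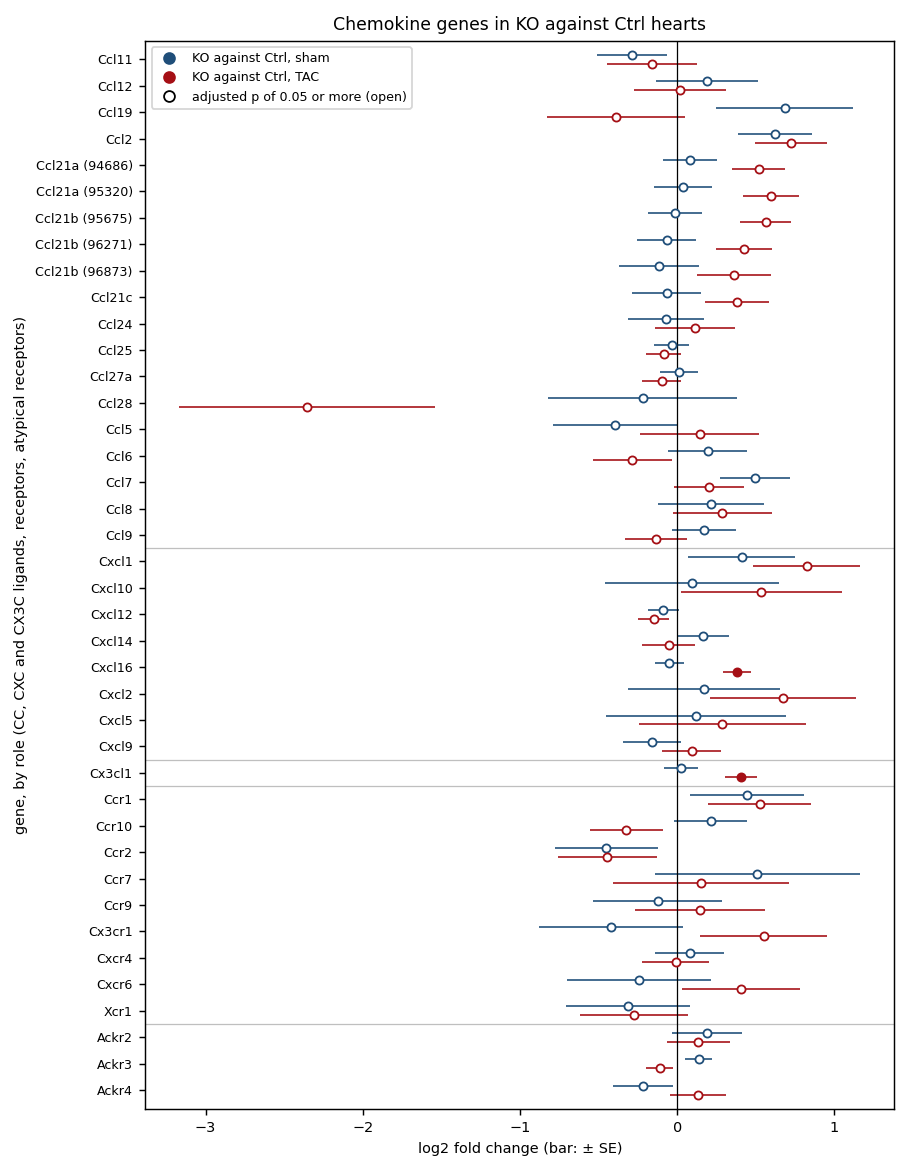
Log2 fold change of 40 members in KO against Ctrl hearts (horizontal axis, bar: SE), after sham surgery (blue) and after TAC (red), with genes ordered by role on the vertical axis and numbers in brackets ending the identifiers of copies that share a symbol. Filled points have an adjusted p under 0.05, and only the TAC points of Cx3cl1 and Cxcl16 are filled.

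The genotype by surgery interaction tested whether the response to TAC differed between KO and Ctrl. No member was called by edgeR or DESeq2, against 0% of all genes called higher and 0.0109% called lower, the latter being 2 genes. At an unadjusted p under 0.05 there were 4 members: Cxcl16 at 0.43 (SE 0.13) on the log2 scale, Cx3cl1 at 0.39 (SE 0.15), the Ccl21a copy ENSMUSG00000095320 at 0.56 (SE 0.26) and the Ccl21b copy on chromosome 4 at 0.58 (SE 0.24). Among all 18275 genes tested, 2024 had an unadjusted p under 0.05 for the interaction in edgeR, so the 4 members do not stand out. The adjusted p of these 4 ran from 0.241 to 0.432 in edgeR. The 9 members called higher with TAC in KO alone, 6 of them rows of near-identical Ccl21 copies, and the 2 called lower were therefore not shown to respond differently from Ctrl.

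Genes that work with chemokine receptors were counted from fixed lists. Of 60 genes of receptor signalling (G proteins, arrestins, kinases and regulators of migration), 14 were called higher and 2 lower after TAC in Ctrl, and 33 higher and 4 lower in KO, against 10.4% of all genes called higher and 9.6% lower in Ctrl and 17.8% and 16.5% in KO. Their median log2 fold change was 0.12 in Ctrl and 0.22 in KO. The largest changes in KO were Rgs2, a brake on G protein signalling, at -1.15 (SE 0.15), Dock2, which drives leukocyte migration, at 1.07 (SE 0.15), and the kinase Pak1 at 0.95 (SE 0.21) on the log2 scale. In Ctrl the means went from 29.4 to 17.6 CPM for Rgs2 and from 1.25 to 2.35 CPM for Pak1, but only from 3.33 to 3.53 CPM for Dock2. The KO sham mice were low for Dock2, at 1.74 to 2.27 CPM, all below the Ctrl sham mice at 2.59 to 4.12 CPM. Mean Dock2 in KO TAC hearts was 4.20 CPM. In KO against Ctrl TAC hearts 3 of the 60 were called, Elmo1, Rap1b and Gnai3, all higher, by 0.27 to 0.31.

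Of 20 leukocyte adhesion genes 4 were called higher and 1 lower in Ctrl and 7 and 1 in KO, beside the same shares of all genes (10.4% and 9.6% in Ctrl, 17.8% and 16.5% in KO), with P-selectin (Selp) at 1.91 (SE 0.46) in Ctrl and 1.29 (SE 0.41) in KO. Of 25 genes of signals that induce chemokines 7 were called higher in Ctrl and 13 in KO, none lower, among them Il6 at 2.34 (SE 0.71) in KO and the receptor Tlr4 at 0.85 (SE 0.13) in Ctrl and 0.87 (SE 0.13) in KO. Selp and Il6 rested on few reads, with summed counts of 285 and 185 over the 16 libraries. Of 11 genes of chemokine-like ligands and receptors outside the symbol families 1 was called higher and 2 lower in Ctrl and 4 higher and 1 lower in KO, with the chemerin receptor Cmklr1 at 0.77 (SE 0.13) and 0.72 (SE 0.13). Nfkbiz and Mif were the genes of these last 3 lists called in KO against Ctrl TAC hearts, at 0.46 (SE 0.11) and 0.36 (SE 0.10).

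Markers of the other cells of the heart were counted in the same way. Of 8 fibroblast markers 4 were called higher after TAC in Ctrl and 7 in KO, Postn most at 2.56 (SE 0.19) and 3.88 (SE 0.20) on the log2 scale, and their sum was 1220 to 1383 CPM in Ctrl sham, 1270 to 1327 in KO sham, 1458 to 1985 in Ctrl TAC and 2127 to 2377 in KO TAC mice. Cxcl12, Cxcl14 and Ccl11, ligands that stromal cells make, fell in the same mice. Of 7 endothelial markers none was called in any comparison, and their sums overlapped among groups, at 591 to 771 CPM. Of 7 cardiomyocyte markers 2 were called higher and 4 lower in Ctrl and 1 higher and 5 lower in KO. Of 8 smooth muscle and pericyte markers 2 were called higher and 1 lower in Ctrl and 3 and 1 in KO. Of 4 neutrophil markers tested none was called in Ctrl and 1 was called higher and 1 lower in KO, none of 5 mast cell markers was called, and no adipose marker passed the filter. The part of these cells in the chemokine levels was not tested.

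RefSeq promoter windows on GRCm38.p6 were found for 27 of the 38 member symbols, and the 250 bases before the start were searched on both strands. The NF-kB consensus, a motif of inflammatory genes, was in 5 of the 27 (Ackr2, Ccl9, Cxcl1, Cxcl2 and Cxcl10) and in 3.9% of all 32851 windows. The interferon response element, a pair of GAAA blocks with 2 bases between them, was in 3 (Ccl19, Cxcl10 and Cxcl14; 2.98% of all windows), TGANTCA for AP-1 in 3 (6.75%), the STAT palindrome TTCNNNGAA in 1 (7.02%), TATAAA in 10 (12.4%) and the GC box GGGCGG in 7 (32.7%). These are matches of letters and not shown to be sites. The windows of the most abundant ligand that fell, of the stromal ligand that fell with it and of Ackr2, an atypical receptor that rose in both genotypes, are printed here, 5′ to 3′ on the gene's strand, with every match to these motifs in capitals.
Cxcl12, chr6:117168285-117168534, plus strand: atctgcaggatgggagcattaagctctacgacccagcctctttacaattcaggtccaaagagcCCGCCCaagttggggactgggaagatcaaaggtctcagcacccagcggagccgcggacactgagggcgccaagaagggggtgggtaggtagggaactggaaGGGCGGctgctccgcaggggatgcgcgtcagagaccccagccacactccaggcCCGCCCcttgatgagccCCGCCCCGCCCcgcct
Cxcl14, chr13:56296552-56296801, minus strand: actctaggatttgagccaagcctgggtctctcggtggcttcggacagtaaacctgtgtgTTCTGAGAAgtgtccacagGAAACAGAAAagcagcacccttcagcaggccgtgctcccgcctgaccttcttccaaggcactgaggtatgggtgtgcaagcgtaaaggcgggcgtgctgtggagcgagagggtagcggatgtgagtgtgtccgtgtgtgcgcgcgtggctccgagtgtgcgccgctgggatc
Ackr2, chr9:121898105-121898354, plus strand: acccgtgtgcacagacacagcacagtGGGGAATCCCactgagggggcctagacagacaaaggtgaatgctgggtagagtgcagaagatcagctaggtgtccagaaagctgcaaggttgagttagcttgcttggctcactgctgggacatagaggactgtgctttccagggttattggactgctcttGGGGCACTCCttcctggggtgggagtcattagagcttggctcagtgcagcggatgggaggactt
The Cxcl12 window held GC boxes, the Cxcl14 window an interferon response element and a STAT palindrome, and the Ackr2 window the NF-kB consensus at 224 and 64 bases before the start.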

How the data were processed

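Libraries of poly(A) RNA were read from both ends. The counts deposited by the authors are raw, in 1 table with 55487 Ensembl genes as rows and 16 mice as columns. The submitters' processing notes name cutadapt 2.3, FastQC, HISAT2 2.1.0, edgeR 3.26.1 and the build GRCm38. The counting program, its annotation and whether it used strand are not given in the sources used here, so overlapping and antisense genes are uncertain. Columns were matched to mice by animal number.

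Symbols, positions and exon lengths came from GENCODE M21, which named 99.5% of the identifiers, and promoters from RefSeq. Library totals ranged from 53169437 to 79404714 counts. Genes were filtered with filterByExpr, scaled by TMM and fitted in edgeR 4.0.16 (R 4.3.3) with 1 mean for each of 4 groups (glmQLFit with the robust option, glmQLFTest, two-sided, Benjamini-Hochberg over the 18275 genes tested), after the fit had been tested on simulated data. The SE was derived from the log2 fold change and its F value. Levels per length are CPM per kilobase of merged exon. No 2 libraries of a group matched within sampling noise.

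The members, the gene lists, the marker lists and the tests were chosen with earlier results of these data known. Values are given for Ccl2, Cxcl12, Cxcl14 and Ccr2, every member called in any of 5 contrasts, their ligand or receptor partners, and the 3 members highest per length, and at most 3 called genes of a list are named. Alternatives were RLE scaling, DESeq2 1.42.0, no filter, only the 8 libraries compared, a term for the animal-number series, and the omission of Ctrl TAC 2, KO TAC 4, both, and each library in turn. Summing the Ccl21 rows was chosen after seeing the data. The values of 1 member are not reported here, although it is in the counts and medians.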

Additional observations from a re-analysis of the deposited data

Results flagged for a closer look

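Over the 41 members and 4 groups, 164 sets of 4 mice were examined, and in 12 of them (7.32%) 1 mouse stood apart, its gap to the nearest mouse being larger than Dixon's critical share of the set's range allows. Chance flags about 1 in 20 such sets. In TAC hearts of Ctrl mice, Ctrl TAC 3 stood above the others for Ackr3 at 67.1 CPM (others 52.0 to 54.2), Ccl11 at 0.684 (0.284 to 0.334), Ccl12 at 1.73 (0.717 to 0.822) and the Ccl21b copy ENSMUSG00000096271 at 1.32 (0.911 to 0.968). Ctrl TAC 1 stood above the others for Ccr7 at 0.352 CPM (0.167 to 0.195) and Cxcr4 at 7.46 (3.94 to 4.52), and Ctrl TAC 4 for Ccl5 at 0.404 (0.158 to 0.167).

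In KO TAC hearts, KO TAC 4, whose Cardinal level goes against its label, stood apart for Cxcl14 at 20.5 CPM (others 12.2 to 12.5) and Ccl12 at 1.25 (0.926 to 0.966), and KO TAC 2 for the Ccl21b copy on chromosome 4 at 2.44 (1.69 to 1.81). In sham hearts, Ctrl sham 1 stood apart for Ackr2 at 0.919 CPM (0.693 to 0.704) and KO sham 1 for Cxcl1 at 2.17 (0.840 to 1.04). No member responded to TAC in opposite directions in the 2 genotypes in every mouse.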

How the results depend on the processing

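The number of members called for TAC was 11 in Ctrl and ranged from 7 to 12 when each library was left out in turn, with 7 without Ctrl sham 2. In KO it was 21 and ranged from 17 to 21 over the alternatives with the same 41 members, and 16 with the 6 Ccl21 rows summed to 1. For KO against Ctrl in TAC hearts the 2 members called became 7 with DESeq2, 1 with no filter on low counts and 0 when a term for the animal-number series was fitted, with only the 8 libraries compared and without both Ctrl TAC 2 and KO TAC 4. Over all genes the calls moved likewise, from 489 to 1183 with DESeq2, 285 with no filter and 12, 154 and 109 in the latter fits. Leaving out 1 library gave 0 to 3, with 0 without Ctrl TAC 2 or any 1 of KO TAC 1, 2 and 3. The counts for KO against Ctrl in sham hearts and for the interaction were 0 under every alternative. Of 776 refits of single calls, 694 kept the call, 82 lost it and 0 changed direction. No paired analysis was possible because the labels carry no replicate numbers. With 4 mice a group and members such as Ccl28 and Ccr7 at few counts per library, small differences in low members were not detectable at this depth, and counts do not separate cell number from RNA per cell.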
